A study of Mus musculus with 2 samples.

Results

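The cells described here are modulated smooth muscle cells of the mouse aorta with low Myh11, the smooth muscle myosin heavy chain. A cell was kept when its deposited values were 3 to 19 for Myh11, at least 40 for Acta2 (smooth muscle actin), at least 5 for the sum of Vcam1 and Tnfrsf11b, below 5 for the sum of the macrophage genes C1qa, C1qb and C1qc, and below 2 for the sum of the endothelial genes Pecam1 and Cdh5. There were 174 such cells among 7358: 84 of 4397 with GLPG0187 and 90 of 2961 with vehicle. They were set against Myh11-high cells, defined by a Myh11 value of 20 or more, of which there were 1516 and 609. The choice used these 9 genes, so their levels are given as a description of what was chosen.

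Both libraries were made from Fbn1C1041G/+ mice aged 16 weeks, using the root and the ascending part of the aorta. These mice are a model of Marfan syndrome with 1 mutant allele of the gene for fibrillin-1, and no library of wild-type mice was analysed here. One group received GLPG0187, an inhibitor of integrin alpha-v, every day from week 6 to week 16, and the other received vehicle on the same schedule. Aortas of males and females were pooled in equal numbers within each treatment, and how many animals made up a pool is not stated in the labels. Each treatment has 1 library, so no difference between treatments has a replicate check and no p-value is given.

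Smooth muscle cells of the aortic media normally contract and hold the elastic lamellae together. In Marfan aortas and in atherosclerosis some of them lose part of their contractile programme and take up genes of fibroblasts, matrix remodelling and cartilage, a change known as phenotypic modulation. Vcam1 encodes an adhesion receptor for integrin alpha-4, Tnfrsf11b encodes osteoprotegerin, a decoy receptor for RANKL, and both are used as marks of this state together with Timp1, Cytl1, Fbln2, Cd34 and Fetub.

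The cells kept contractile genes and held few transcripts of immune cells. Values in these files are depth-corrected whole numbers, with totals per cell of 12135 to 16719 with GLPG0187 and 12078 to 16187 with vehicle, so they are levels on a common scale and not counts of molecules. Modulated cells had a median of 3986.5 genes detected with GLPG0187 and 4088 with vehicle, and Myh11-high cells had 4082 and 4205. The rule itself capped the C1q genes and the pair of Pecam1 and Cdh5, and the 9 other macrophage markers, which it did not use, summed to at most 3 in any modulated cell of either library. Csf1r and Adgre1 were at 0 in both. No modulated cell held any of the 7 lymphocyte markers measured, and the 8 endothelial markers outside the rule summed to at most 5 in the GLPG0187 cells and 4 in the vehicle cells. Fibroblast genes were present: the sum of their 16 markers had a median of 23 (lowest 5, highest 781) in GLPG0187 modulated cells and 22 (lowest 3, highest 562) in vehicle modulated cells, against medians of 12 in the Myh11-high cells of each library. Low-Myh11 cells that met the rule except for Vcam1 plus Tnfrsf11b below 5 had higher medians, 37.5 with GLPG0187 and 32 with vehicle. Scrublet, which marks likely doublets, called 3 GLPG0187 and 4 vehicle modulated cells. The libraries shared 5 cell barcodes, and 1 of these was a modulated cell.

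**Figure D1:**
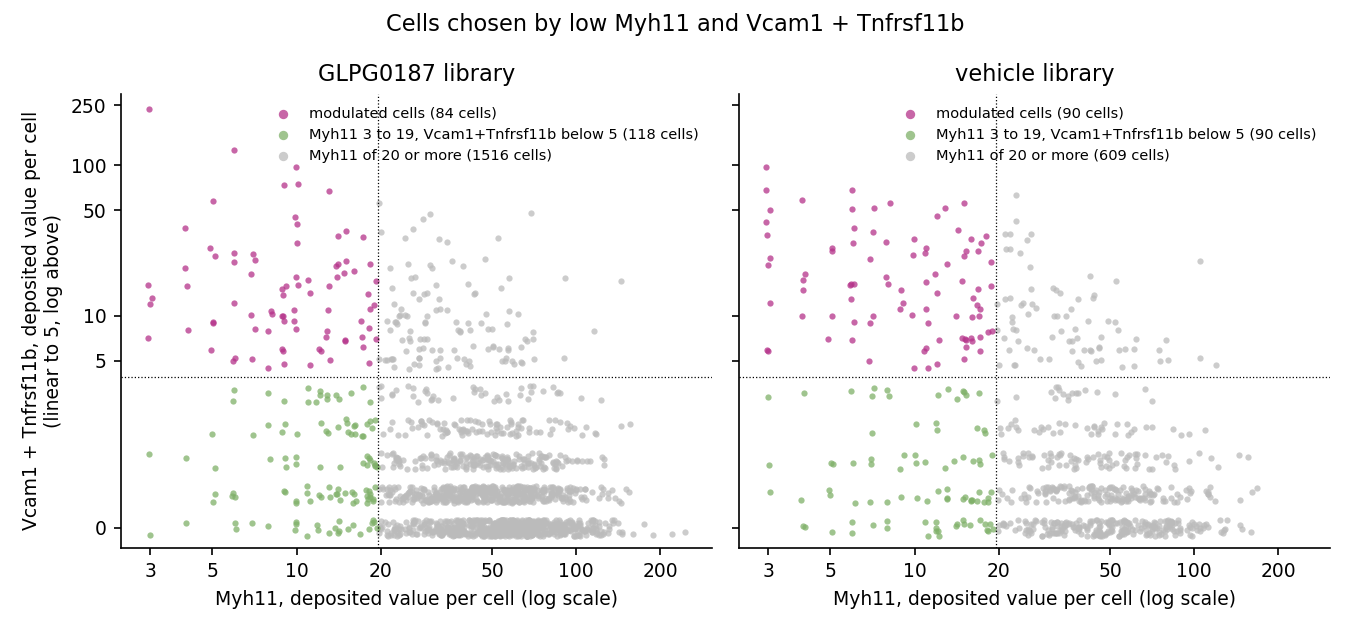
Myh11 (x axis, log scale) against the sum of Vcam1 and Tnfrsf11b (y axis, linear up to 5 and log above), both in deposited values per cell, for the GLPG0187 library on the left and the vehicle library on the right. Each point is 1 cell, jittered slightly; the dotted lines mark the limits of the rule, and the modulated cells (84 and 90) fill the upper left of each panel without a gap to their neighbours.

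The rule cuts a continuum of Myh11 and marker values, and the genes compared at its limits did not all behave alike. Among smooth muscle cells that met the Acta2, C1q and endothelial conditions, the share with Vcam1 plus Tnfrsf11b of at least 5 was highest at Myh11 3 to 8, at 59.6% (31 of 52 cells, exact 95% interval 45.1 to 73.0%) with GLPG0187 and 57.4% (39 of 68, 44.8 to 69.3%) with vehicle. At Myh11 20 to 29, just outside the rule, the share was still 22.5% (47 of 209) with GLPG0187 and 29.5% (33 of 112) with vehicle. It was 3.74% (29 of 776) and 6.25% (16 of 256) at Myh11 of 50 or more. Cells just inside the Myh11 limit, at 17 to 19, had a mean Fn1 of 20.8 with GLPG0187 (12 cells) and 28.5 with vehicle (13 cells), and marker-positive cells just outside it, at 20 to 22, had 25.5 (13 cells) and 32.7 (14 cells). Timp1 was lower just outside this limit, with GLPG0187 and vehicle means of 6.00 and 6.77 inside and 2.00 and 1.57 outside. At the limit on Vcam1 plus Tnfrsf11b, cells with a sum of 5 or 6 had a mean Cd34 of 2.64 with GLPG0187 (14 cells) and 3.73 with vehicle (11 cells), and cells with a sum of 3 or 4 had 2.36 (39 cells) and 3.14 (21 cells). Fn1 was lower outside that limit, with means of 14.8 and 20.8 inside and 7.69 and 13.2 outside.

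Modulated cells made up a smaller share of smooth muscle cells in the GLPG0187 library. They were 5.25% of modulated plus Myh11-high cells with GLPG0187 (84 of 1600, exact 95% interval 4.21 to 6.46%) and 12.9% with vehicle (90 of 699, 10.5 to 15.6%), a difference of -7.63 percentage points (-10.5 to -4.94). Of all cells they were 1.91% with GLPG0187 (1.53 to 2.36%) and 3.04% with vehicle (2.45 to 3.72%). These intervals are Clopper-Pearson intervals and cover counting error only, not the spread between animals or digestions. The order was the same in cells with Xist and no Y-linked transcript (22 of 435 with GLPG0187 and 32 of 213 with vehicle) and in cells with a Y-linked transcript and no Xist (51 of 1021 and 49 of 429), which are called Xist-only and Y-only cells below and come from different animals of each pool.

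The share can be divided into the low-Myh11 cells and those of them that carried the markers. The intervals on these differences also cover counting error within 1 library per treatment and do not compare the treatments. Cells with Myh11 of 3 to 19 were 12.1% of the smooth muscle cells that met the other conditions with GLPG0187 (202 of 1670) and 23.1% with vehicle (180 of 778), a difference of -11.0 percentage points (-14.5 to -7.68). Cells with Myh11 of 50 or more were 46.5% with GLPG0187 and 32.9% with vehicle. Among the low-Myh11 cells, 41.6% with GLPG0187 and 50% with vehicle were marker-positive, a difference of -8.42 points (-18.6 to 1.95). In Xist-only cells that share was 31.9% with GLPG0187 and 50% with vehicle, a difference of -18.1 points (-34.8 to -0.37). In Y-only cells it was 50% and 49.5%, a difference of 0.51 points (-13.9 to 14.8).

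**Figure D2:**
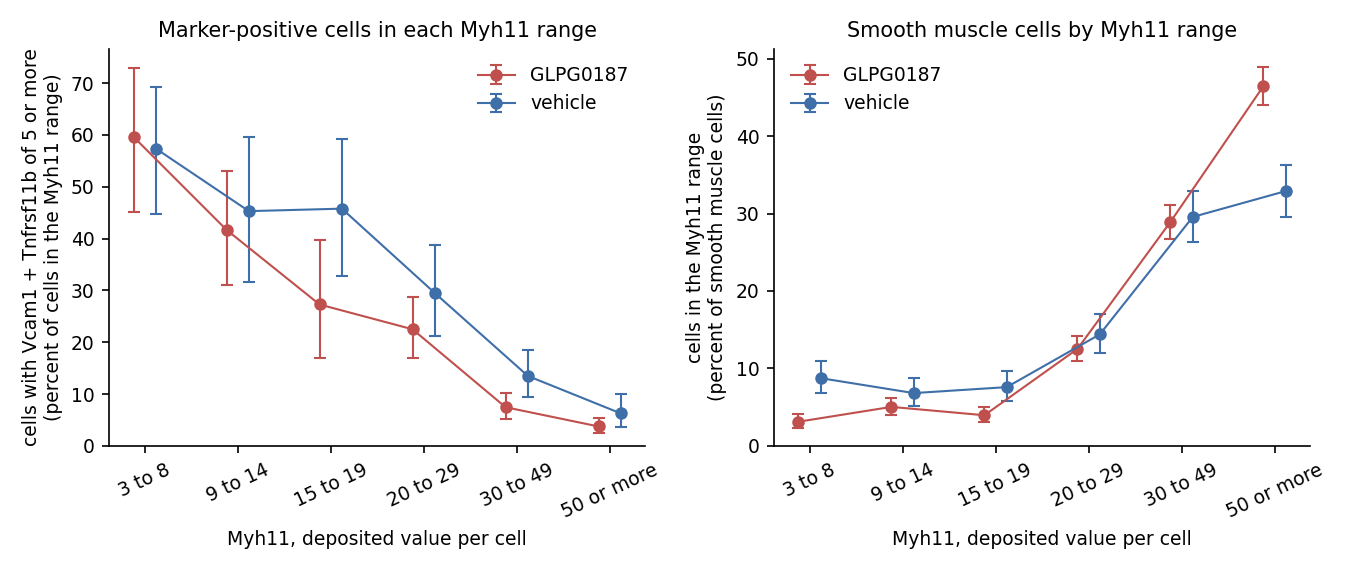
Left, percent of smooth muscle cells in each Myh11 range (x axis, deposited value per cell) that had Vcam1 plus Tnfrsf11b of 5 or more; right, percent of smooth muscle cells that fell in each Myh11 range. Points are 1 library each (GLPG0187 red, vehicle blue) with exact 95% intervals; the marker-positive share is highest at Myh11 3 to 8 and lowest at 50 or more, with 45.3% and 45.8% at 9 to 14 and 15 to 19 in the vehicle library, and the GLPG0187 library holds 46.5% of its cells at Myh11 of 50 or more, against 32.9% in the vehicle library.

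The markers that the rule did not use were also higher in modulated cells than in Myh11-high cells of both libraries. Across 11689 genes measured, those with a summed value of at least 50, 2.93% were at least 2-fold higher in modulated cells of both libraries and 2.38% at least 2-fold lower, and all 5 remaining markers were among the higher ones. The 2-fold limit describes size and is not a test, and a gene that follows Myh11 or the 2 marker genes from cell to cell is favoured by the rule. The 5 markers were also listed with earlier results of these data known. Their place among the higher genes is therefore a description and not independent support. Cd34, a surface sialomucin of progenitors, endothelium and adventitial fibroblasts, ran from 0 to 19 with a median of 2.5 in GLPG0187 modulated cells, against 0 to 14 with a median of 0 in Myh11-high cells. In the vehicle library it ran from 0 to 20 with a median of 5 in modulated cells, against 0 to 14 with a median of 0 in Myh11-high cells. The log2 ratios of the class means were 2.87 with GLPG0187 and 2.86 with vehicle, and although the ranges overlapped, 81.0% and 86.7% of modulated cells had Cd34 above 0, against 27.2% and 27.6% of Myh11-high cells.

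Timp1, an inhibitor of matrix metalloproteinases, had a mean of 4.61 in GLPG0187 modulated cells (range 0 to 91, median 1) against 0.444 in Myh11-high cells, a log2 ratio of 3.36. In the vehicle library Timp1 averaged 7.83 in modulated cells (range 0 to 164, median 2) and 0.522 in Myh11-high cells, a log2 ratio of 3.89. A few cells carried much of it, since the highest cell held 23.5% of the summed Timp1 of GLPG0187 modulated cells and 23.3% of that of vehicle modulated cells. Fbln2, a fibulin of the extracellular matrix, averaged 1.58 and 2.48 in GLPG0187 and vehicle modulated cells, against 0.261 and 0.294 in Myh11-high cells. Fibroblast reference cells were those with Myh11 below 3 and a sum of Pdgfra, Dpt and Pi16 of at least 3. There Cd34 averaged 5.78 with GLPG0187 and 5.48 with vehicle, against 4.23 and 5.34 in modulated cells. Timp1 averaged 5.20 and 4.93 there and Fbln2 3.58 and 3.10, so Cd34, Timp1 and Fbln2 are not particular to modulated cells. Fetub, the protease inhibitor fetuin-B, and Cytl1, a small secreted protein of cartilage, were patchy: Fetub was above 0 in 19% and 36.7% of the GLPG0187 and vehicle modulated cells, and Cytl1 in 31.0% and 37.8%. The highest cell held 38.9% of the Cytl1 of GLPG0187 modulated cells, and in their Xist-only cells the log2 ratio of Cytl1 over Myh11-high cells was -0.07, against 1.66 in all cells.

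The genes that chose the cells had these levels. Myh11 averaged 10.2 in the modulated cells of each library, against 55.6 and 51.7 in the Myh11-high cells of the GLPG0187 and vehicle libraries. Acta2 averaged 110.5 in GLPG0187 and 103 in vehicle modulated cells, against 319 and 311 in Myh11-high cells. Vcam1 averaged 16.9 and 14.2 in the GLPG0187 and vehicle modulated cells, and Tnfrsf11b averaged 5.24 and 7.36. Both genes were above 0 in the same cell for 70.2% of GLPG0187 modulated cells (59 of 84) and 84.4% of vehicle modulated cells (76 of 90), and Vcam1 alone was above 0 in 23.8% and 11.1%.

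Of 20 contractile genes, 14 were at least 2-fold lower in modulated cells of the GLPG0187 library, where 5.94% of all measured genes were, and 15 in the vehicle library, where 5.65% were. None was 2-fold higher, and the median log2 ratio of the list was -1.45 with GLPG0187 and -1.51 with vehicle, against -0.05 over all measured genes in each library. Without Myh11 and Acta2, which the rule used, the counts were 12 and 13 of 18 and the medians -1.41 and -1.37. Cnn1, encoding calponin, had 0 to 24 with a median of 4 in GLPG0187 modulated cells, against 0 to 81 with a median of 24 in Myh11-high cells. Its vehicle values were 0 to 16 with a median of 3.5 in modulated cells and 0 to 111 with a median of 21 in Myh11-high cells, and the log2 ratios were -2.24 and -2.28. The intermediate filament gene Des had the largest fall among contractile genes, with log2 ratios of -3.26 and -3.47 and a value above 0 in only 9.52% of GLPG0187 and 16.7% of vehicle modulated cells, against 28.8% and 27.4% of Myh11-high cells.

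The loss was partial and uneven. Tagln, encoding transgelin, kept a mean of 138 in GLPG0187 modulated cells and 149.6 in vehicle modulated cells, against 259 and 256 in Myh11-high cells, log2 ratios of -0.89 and -0.76. The actin-binding and thin-filament genes Smtn (-0.60 and -0.66), Lmod1 (-0.74 and -0.82) and Cald1 (-0.81 and -0.85) also stayed within 2-fold in both libraries. Myl9, the regulatory light chain of smooth muscle myosin, averaged 19.6 and 15.3 in GLPG0187 and vehicle modulated cells, against 70.1 and 66.7 in Myh11-high cells, and Mylk, the kinase that acts on that light chain, averaged 6.57 and 6.61 against 16.4 and 16.3. Myocd, the coactivator of the serum response factor that drives the contractile programme, had log2 ratios of -1.57 and -1.39, whereas Srf itself had -0.34 and 0.02.

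Serum response factor binds the CArG box, and the Myl9 promoter holds one. RefSeq promoters of build GRCm38.p6 were searched over the 250 bases before each start, and 1 of 16 contractile genes in that table held a CArG box on either strand, which 1.47% of all promoters did. The Myl9 window, at chr2:156775273-156775342 on the plus strand, is shown with the box in capitals.
Myl9: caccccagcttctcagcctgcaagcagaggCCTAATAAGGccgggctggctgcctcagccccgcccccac

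**Figure D3:**
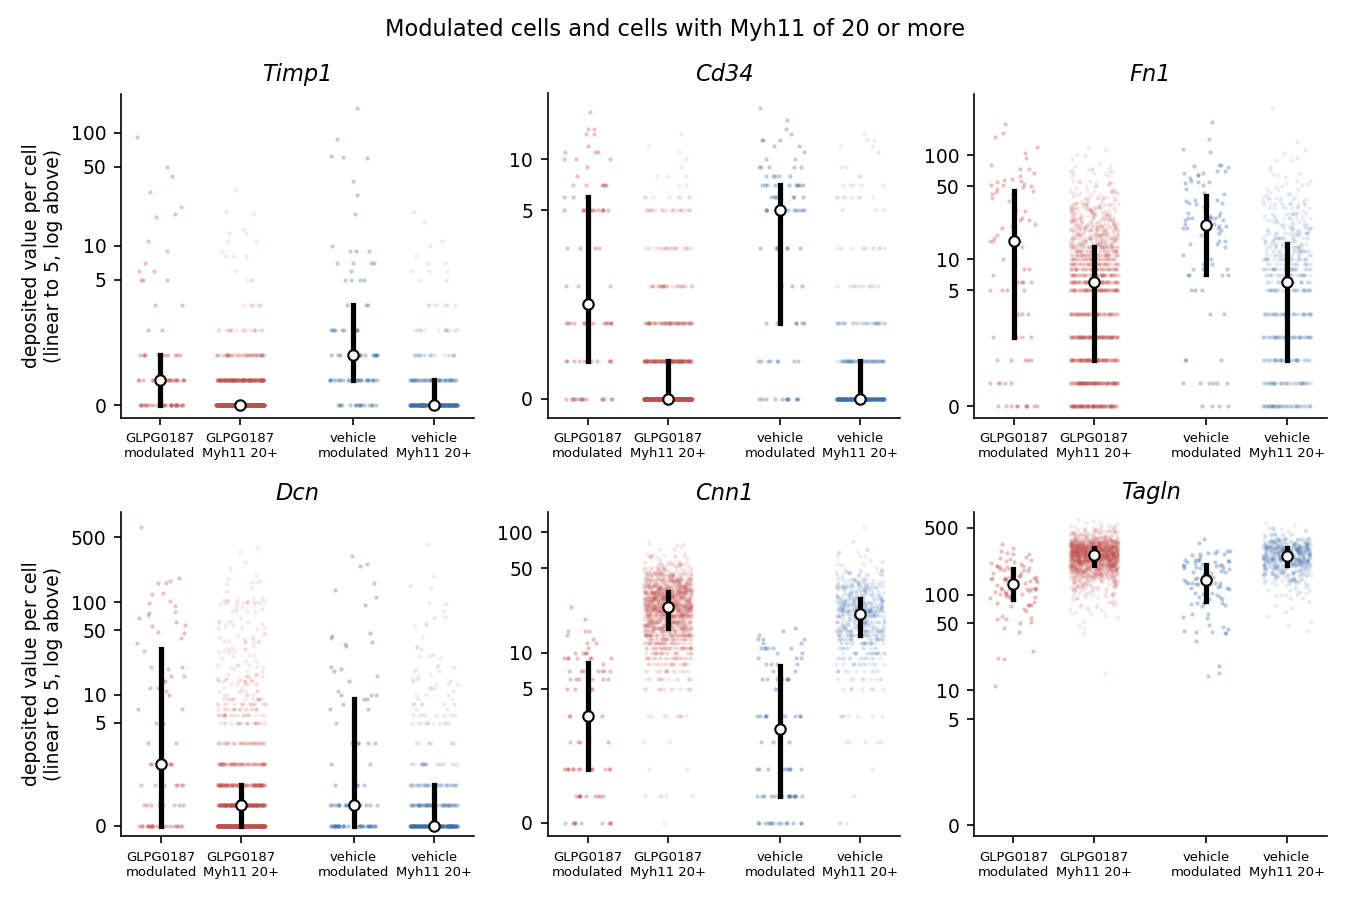
Deposited value per cell (y axis, linear up to 5 and log above) of 6 genes in modulated and Myh11-high cells of the GLPG0187 library (left pair, red) and of the vehicle library (right pair, blue). Points are cells, circles are medians and bars run from the lower to the upper quartile; Timp1, Cd34 and Fn1 are higher in modulated cells, Cnn1 is much lower, and Tagln is lower but stays at medians of 128.5 and 140.5.

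The 15 genes with the largest rise in both libraries, among 79 that met the level and fold limits, were Timp1, Fmod, Cd34, Gdf10, Fbln2, Nrgn, Mmp2, Lum, Comp, Cygb, Sfrp2, Smoc1, Dcn, Crispld1 and Lamc3. Mmp2, the gelatinase that Timp1 and Timp2 regulate, averaged 1.92 in GLPG0187 and 1.89 in vehicle modulated cells, against 0.328 and 0.309 in Myh11-high cells. The Wnt antagonist Sfrp2 averaged 8.55 and 8.53 against 1.77 and 1.64, and Smoc1, a secreted calcium-binding protein, 6.25 and 6.34 against 1.30 and 1.32. The small leucine-rich proteoglycan genes Lum and Dcn rose as means, but Lum was above 0 in only 54.8% of GLPG0187 and 42.2% of vehicle modulated cells. Dcn ran from 0 to 648 with a median of 3 in GLPG0187 modulated cells, against 0 to 384 with a median of 1 in Myh11-high cells, and from 0 to 314 with a median of 1 in vehicle modulated cells, against 0 to 423 with a median of 0 in Myh11-high cells. Low-Myh11 cells with Vcam1 plus Tnfrsf11b below 5 averaged more than modulated cells for Dcn, Lum and Cygb in both libraries. Their GLPG0187 and vehicle means were 39.7 and 26.8, 10.2 and 10.1, and 2.53 and 1.47. Modulated cells had 33.2 and 19.9, 8.61 and 7.26, and 1.33 and 1.24. Fmod was higher in the former with vehicle only, and the rest of the 15 averaged less in them in both libraries. Cygb was above 0 in 17.9% and 13.3% of modulated cells.

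The 15 genes with the largest fall, among 85, were Des, Sparcl1, Synpo2, Optc, Cnn1, Hspa1b, Sh3bgr, Xirp1, Hspa1a, Ppp1r14a, Rgs4, Filip1l, Flnc, Myl9 and Mcam. Of these, Des, Synpo2, Cnn1 and Myl9 are in the contractile list. Ppp1r14a, the inhibitor of myosin phosphatase, averaged 3.43 and 2.63 in GLPG0187 and vehicle modulated cells, against 13.9 and 13.3 in Myh11-high cells. Sparcl1, a secreted matricellular protein, averaged 1.21 and 0.900 against 8.47 and 9.32. The heat shock genes Hspa1a and Hspa1b were lower too, with log2 ratios of -2.02 and -2.14 with GLPG0187 and -2.37 and -2.16 with vehicle. Of 11 heat shock genes 4 were 2-fold lower with GLPG0187, where 5.94% of all measured genes were, and 5 with vehicle, where 5.65% were. Genes of this list are induced by stress, dissociation included, and the median share of mitochondrial values was 3.29% and 3.25% in GLPG0187 and vehicle modulated cells, against 3.67% and 3.59% in Myh11-high cells.

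Matrix genes rose in part. Of 18 elastic fibre genes measured, 8 were at least 2-fold higher in GLPG0187 modulated cells, where 5.43% of all measured genes were, and 8 in vehicle modulated cells, where 4.96% were. Eln, encoding tropoelastin, ran from 0 to 154 with a median of 20 in GLPG0187 modulated cells, against 0 to 118 with a median of 10 in Myh11-high cells, and from 0 to 156 with a median of 17 in vehicle modulated cells, against 0 to 210 with a median of 10 in Myh11-high cells. Fbn1, the gene that carries the Marfan mutation in these mice, had log2 ratios of 1.08 and 1.01, and Fbln5, which links elastic fibres to cells, 1.21 and 1.09. The cross-linking enzyme Lox did not follow (0.12 and -0.26). Among 17 genes of fibrillar collagens and their processing Col1a1, Col8a1 and Pcolce were 2-fold higher in both libraries, where 2.93% of all measured genes were. Col3a1 had ratios of 0.16 and 0.26.

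Fn1 and Mgp stood above both neighbours. Fn1, encoding fibronectin, a ligand of alpha-v and alpha-5 integrins, averaged 29.2 in GLPG0187 and 30.9 in vehicle modulated cells, against 10.2 and 11.5 in Myh11-high cells. In fibroblast reference cells, defined by Myh11 below 3 and a sum of Pdgfra, Dpt and Pi16 of at least 3, Fn1 averaged 2.80 and 2.94. Mgp, the inhibitor of calcification matrix Gla protein, averaged 1122 and 1307 in the modulated cells, against 239.9 and 312 in Myh11-high cells and 408 and 439 in fibroblast reference cells. Of the 340 genes that were 2-fold higher in both libraries, leaving out those of the rule, 64.4% with GLPG0187 and 61.8% with vehicle had a mean between those of Myh11-high and fibroblast reference cells. Genes with a mean of at least 1 that were 2-fold above both classes in both libraries numbered 14, and included Nrgn, Timp4, Fn1, Mgp, Sfrp2, Lamc3, Fbln5 and Eln.

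Cartilage and bone genes were a mixed group. Of 11 osteochondrogenic genes measured, 7 were 2-fold higher with GLPG0187, where 5.43% of all measured genes were, and 7 with vehicle, where 4.96% were. The medians were 1.66 and 1.31, and these 7 include Cytl1 and Mgp, while 2 were lower in each. The cartilage matrix gene Comp averaged 2.43 and 4.18 in GLPG0187 and vehicle modulated cells, against 0.472 and 0.714 in Myh11-high cells, yet it reached 3 or more in only 7 GLPG0187 and 9 vehicle modulated cells. The regulators Sox9 and Runx2 had low means, 0.405 and 0.411 for Sox9 and 0.0833 and 0.111 for Runx2 in the GLPG0187 and vehicle modulated cells. Mki67, a gene of dividing cells, was listed at 0 in all 84 GLPG0187 and 90 vehicle modulated cells, which allows a share of cells with a value above 0 of up to 3.57% and 3.33% and sets no limit on cells that express it.

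GLPG0187 acts on integrins that contain alpha-v, and Itgav did not reach a 1.5-fold difference between the modulated cells of the libraries. Itgav, encoding alpha-v, had 0 to 5 with a median of 1 in GLPG0187 modulated cells and 0 to 7 with a median of 1 in vehicle modulated cells, with means of 1.43 and 1.63 and a log2 ratio of -0.18 between the libraries. Its log2 ratios over Myh11-high cells were 0.38 with GLPG0187 and 0.60 with vehicle. Of its partners, Itgb5 was nearly 2-fold higher than in Myh11-high cells (log2 ratios 0.99 and 0.91, means of 7.86 and 7.20), Itgb1 was lower (-0.41 and -0.34) and Itgb3 was above 0 in 34.5% and 30% of the GLPG0187 and vehicle modulated cells. The fibronectin receptor subunit Itga5 had ratios of -0.95 and -1.17, Itga8 -0.97 and -0.66 and Itga9 -1.28 and -1.50. The collagen receptor subunit Itga11 was higher (2.55 and 3.09) from low means of 0.202 and 0.389.

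**Figure D4:**
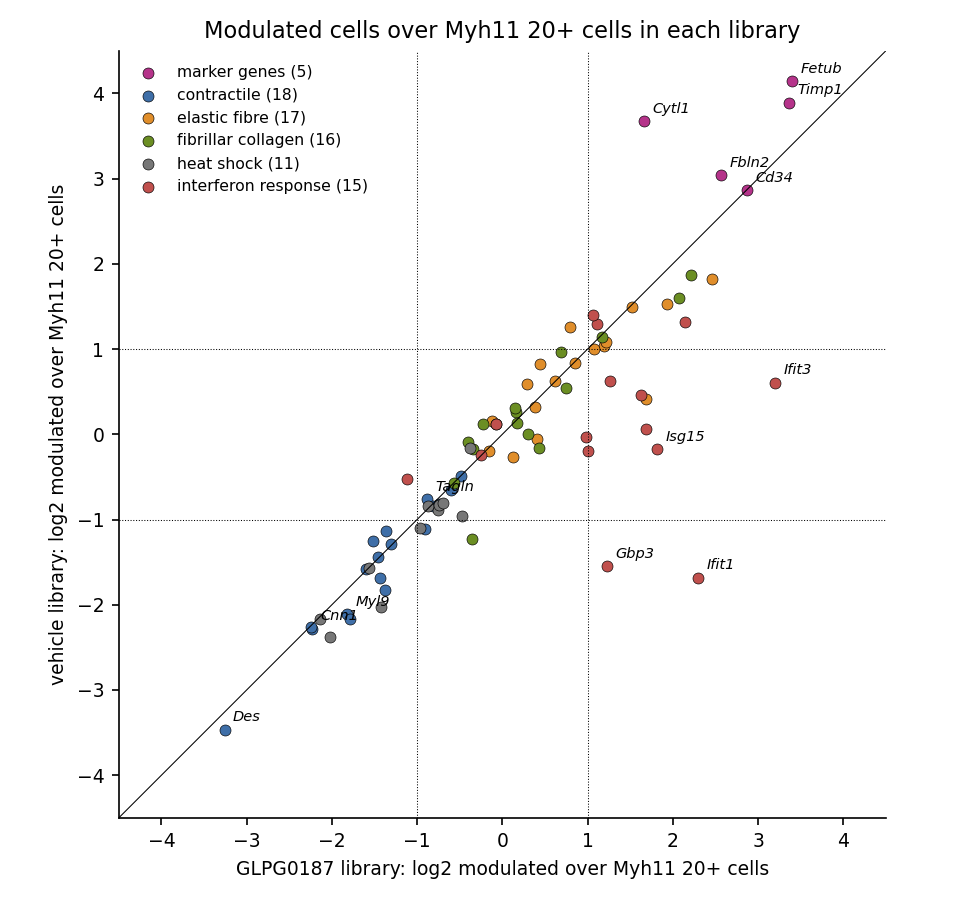
Log2 ratio of modulated over Myh11-high cells in the GLPG0187 library (x axis) and in the vehicle library (y axis) for measured genes of 6 lists, without the genes of the rule. Each point is 1 gene, the diagonal marks equal ratios and the dotted lines mark 2-fold; contractile genes lie at the lower left and marker genes at the upper right of both libraries, and several interferon response genes, such as Ifit1 at 2.30 and -1.68, lie far below the diagonal.

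The low-Myh11 cells that met the rule except that Vcam1 plus Tnfrsf11b was below 5 (118 cells with GLPG0187 and 90 with vehicle), gave a narrower set of differences. Of 8325 genes measured over both groups, 0.805% were at least 2-fold higher in modulated cells in both libraries and 0.36% at least 2-fold lower. Fn1 averaged 29.2 and 30.9 in GLPG0187 and vehicle modulated cells, against 8.05 and 7.72 in the low-marker cells. Igfbp2, a binding protein of insulin-like growth factors, averaged 13.5 and 10.9 against 2.41 and 1.70, and Ace, the angiotensin-converting enzyme, 8.07 and 12.5 against 2.79 and 3.94. Myl9 averaged 19.6 and 15.3 in the modulated cells against 38.8 and 37.1, and Hspb1 36.1 and 22.4 against 72.5 and 58.2, while Mylk averaged 6.57 and 6.61 against 6.60 and 6.54. Compared with Myh11-high cells, Igfbp2 in modulated cells stayed within 2-fold in both libraries. The median of genes detected was 3986.5 in GLPG0187 and 4088 in vehicle modulated cells, against 3446 and 3474 in the low-marker cells, and the part of that gap in these ratios was not tested.

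Modulated cells also varied among themselves along Myh11. In the GLPG0187 library the 31 cells with Myh11 of 3 to 8 had a mean Cnn1 of 2.45, the 35 cells with 9 to 14 had 6.09 and the 18 cells with 15 to 19 had 8.44. The vehicle means were 2.64 (39 cells), 4.29 (24 cells) and 7.63 (27 cells). Tagln followed the same order, with means of 100.9, 144 and 190.2 in the GLPG0187 cells and 124.7, 149.5 and 185.5 in the vehicle cells. Tnfrsf11b ran the other way, at 6.29, 5.03 and 3.83 with GLPG0187 and 10.3, 6.38 and 4 with vehicle. Myh11 and Tnfrsf11b were both used to choose the cells, so this order describes the chosen cells only. Cells with a sum of Vcam1 and Tnfrsf11b of 10 or more had a mean Fn1 of 35.1 (53 GLPG0187 cells) and 35.9 (65 vehicle cells), and cells with a sum of 5 to 9 had 19.3 (31 cells) and 17.8 (25 cells).

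Correlations across modulated cells were larger among contractile genes than among the marker pairs computed. Spearman's rho between Cnn1 and Tagln was 0.63 over 84 GLPG0187 cells and 0.51 over 90 vehicle cells, and between Cnn1 and Myl9 it was 0.58 and 0.64. Timp1 and Fn1 had 0.41 and 0.31, Timp1 and Fbln2 0.30 and 0.26, Timp1 and Cd34 0.15 and -0.06, Fbln2 and Cd34 0.22 and 0.23, and Cd34 and Cnn1 -0.35 and -0.24. Cells of 1 library share their pool and the depth correction, and these values describe them without a test. Medians in GLPG0187 and vehicle modulated cells were 1 and 2 for Timp1, 0 and 1 for Fbln2 and 2.5 and 5 for Cd34. They were 4 and 3.5 for Cnn1 and 17 and 12 for Myl9. The part of low values and ties in the smaller correlations was not tested. Tnnt2, encoding troponin T of the heart, was looked at after the data were seen and split the cells further: 33 GLPG0187 and 24 vehicle modulated cells had a value of 3 or more, and their mean Nrgn, a calmodulin-binding protein, was 0.667 and 2, against 3.22 and 5.30 in the other 51 and 66 cells.

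Between the libraries, the gene lists of the modulated cells differed in how many genes passed the size set as a limit. Of 6114 genes with a summed value of at least 50 over modulated cells, 3.17% were at least 1.5-fold higher with GLPG0187 and 3.68% at least 1.5-fold lower. These calls rest on few cells: of the 224 genes called higher in Xist-only modulated cells 33 were among the 194 called in all, and of the 157 in Y-only cells 54 were. Without Myh11 and Acta2, whose range the rule sets, none of 17 contractile genes passed that limit in either direction, and their median log2 ratio of GLPG0187 over vehicle was 0.08, against -0.02 over all measured genes. In Xist-only cells 2 of the 17 were lower (median -0.02), and in Y-only cells 3 were higher (median 0.26). None of 16 fibrillar collagen genes passed the limit (median 0.17), though 4 were higher in Xist-only cells. Of 17 elastic fibre genes Fbln1 and Mfap2 were higher and Fbln2 lower (median 0.10). Of 10 proteoglycan genes Dcn, Fmod, Aspn and Vcan were higher and Acan was lower (median 0.46, but -0.039 in Y-only cells). Of 15 matrix protease and inhibitor genes Adamts5 was higher and Timp1 and Timp4 were lower (median -0.12). Of 16 TGF-beta response genes 2 were higher and 1 was lower (median 0.20). In Xist-only cells 6 were higher and 2 lower (median 0.29), and in Y-only cells 2 were higher and 2 lower (median 0.16). The lower one in all modulated cells was Ctgf, a secreted target of TGF-beta and of mechanical signalling, which ran from 1 to 138 with a median of 24.5 in GLPG0187 modulated cells and from 3 to 190 with a median of 47.5 in vehicle modulated cells. Its log2 ratio was -0.63 in modulated cells and -0.78 in Myh11-high cells.

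Of the 5 markers that the rule did not use, Timp1 (-0.75), Fbln2 (-0.63) and Fetub (-0.75) were at least 1.5-fold lower with GLPG0187, where 3.68% of all measured genes were. None was higher, and the median was -0.63. The genes past the limit changed with the sex of origin. In Xist-only cells that median was -0.64, with 3 lower (Timp1, Cytl1 and Fbln2) and 1 higher (Fetub). In Y-only cells it was -0.37, with 2 lower (Cytl1 and Fetub), while Timp1 (-0.33) and Fbln2 (-0.37) stayed within the limit. The rule bounds Vcam1 and Tnfrsf11b from below, so their ratios, 0.27 and -0.47, describe cells above that bound. Fetub averaged 0.833 in GLPG0187 and 1.42 in vehicle modulated cells, and its order was turned round in Xist-only cells (log2 ratio 1.24).

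The 12 genes with the largest deficit in GLPG0187 modulated cells, of 137 that met it, were Nrtn, Timp4, Mt2, Mt1, Gfra2, Atp8a1, Stk32b, Chrdl1, Isyna1, Dkc1, Hist1h4h and 1500015O10Rik. Nrtn, encoding the neurotrophic ligand neurturin, averaged 0.405 with GLPG0187 and 1.23 with vehicle, and Gfra2, its receptor subunit, 0.274 and 0.644. The metallothionein gene Mt1 ran from 0 to 65 with a median of 7.5 in GLPG0187 modulated cells and from 0 to 201 with a median of 17 in vehicle modulated cells, a log2 ratio of -1.31, and Mt2 had -1.37. In Xist-only modulated cells the ratios were -0.50 for Mt1 and -0.23 for Mt2, within the 1.5-fold limit, and in Y-only modulated cells -1.67 and -1.71. The log2 ratios of the same genes in Myh11-high cells were -0.22 for Mt1 and -0.29 for Mt2. Timp4, a tissue inhibitor of metalloproteinases, averaged 1.04 with GLPG0187 and 2.74 with vehicle (-1.38), and its ratio in Myh11-high cells was 0.13. Nrgn averaged 2.21 and 4.42, a ratio of -0.98, and its ratio in Myh11-high cells was -0.86.

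The genes on the high side with GLPG0187 were led by antigen presentation and the interferon response. Among the first 12 of 105 were H2-Ab1, H2-Eb1, Cd74, Gbp2, Psmb8, Gpc3, Zbtb16, Ly6e, Tppp3, Irf1 and Serpinf1. Each of the 4 class II genes of the MHC that could be measured was higher (median log2 ratio 2.59), where 3.17% of all measured genes were. H2-Ab1, a chain of an MHC class II molecule, had 0 to 19 in GLPG0187 modulated cells and was above 0 in 31.0% of them, and had 0 to 7 in vehicle modulated cells and was above 0 in 5.56%, with medians of 0 in both. Myh11-high cells showed the same order, with H2-Ab1 above 0 in 22.2% with GLPG0187 and 9.36% with vehicle and a median log2 ratio of 1.94 over the 4 genes. In fibroblast reference cells the means with GLPG0187 and vehicle were 2.02 and 1.73 for H2-Ab1, 1.38 and 1.22 for H2-Aa, 1.37 and 1.38 for H2-Eb1, and 2.33 and 2.39 for Cd74. The shares of fibroblast reference cells above 0 were higher with GLPG0187: 37.1% and 27.7% for H2-Ab1, 29.3% and 21.1% for H2-Eb1, and 36.0% and 21.3% for Cd74. In the low-marker cells H2-Ab1 was above 0 in 23.7% with GLPG0187 and 14.4% with vehicle. The higher share was thus not particular to modulated cells. In the modulated cells with a Y-linked transcript and no Xist, the median of the 4 genes was 0.93 and H2-Aa had -0.23, against a median of 4.63 in the Xist-only cells. Class II genes are abundant in macrophages, whose 9 markers outside the rule summed to a mean of 0.369 in GLPG0187 and 0.322 in vehicle modulated cells. The Myh11-high cells were not chosen against C1q genes, and there the 9 markers summed to a mean of 1.5 with GLPG0187 and 0.706 with vehicle (highest cells 269 and 172). The part of RNA from such cells was not tested.

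Of 11 interferon response genes measured, 10 were at least 1.5-fold higher in GLPG0187 modulated cells, where 3.17% of all measured genes were, and the median log2 ratio was 1.49, but a few cells carried it. The summed value of the interferon list per cell had a median of 7 in GLPG0187 modulated cells (range 0 to 314) and 6 in vehicle modulated cells (range 1 to 35). A sum of 10 or more occurred in 31 of the GLPG0187 cells and 21 of the vehicle cells. The highest GLPG0187 cell held 25.6% of the sum of its group, and without that cell 8 of the 11 genes passed and the median was 1.08. Ifit3, an interferon-induced antiviral gene, was above 0 in 11.9% of GLPG0187 and 12.2% of vehicle modulated cells, so its log2 ratio of 3.40 rested on level, and 1 cell held 81.0% of the GLPG0187 sum. Bst2, encoding tetherin, was less concentrated: it ran from 0 to 36 with a median of 1 and a mean of 2.35 with GLPG0187 and from 0 to 6 with a median of 1 and a mean of 1.08 with vehicle. Taken within Xist-only modulated cells the list's median was 1.58, within Y-only modulated cells 1.53, and in Myh11-high cells 0.61.

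Class I genes were also higher with GLPG0187. H2-K1, a class I heavy chain, had a median of 2 and a mean of 4.19 with GLPG0187 (range 0 to 41) and a median of 1.5 and a mean of 1.99 with vehicle (range 0 to 15). B2m, the light chain shared by class I molecules, had medians of 13 and 11.5 and means of 18.5 and 13.1. Of 6 class I genes 4 passed the limit, where 3.17% of all measured genes did, with a median log2 ratio of 0.99. The median was 1.41 in Xist-only cells, 0.52 with 3 of 6 past the limit in Y-only cells, and 0.48 with 1 of 6 in Myh11-high cells. Of 9 inflammatory genes 5 were higher and none was lower, and in Y-only cells 4 were higher while Cebpb and Cebpd were lower. The higher ones included Cxcl12, a chemokine that attracts leukocytes, at means of 3.93 and 1.73, and Nfkbia, the inhibitor of NF-kappa-B, at 4.17 and 2.12. Of 14 immediate early genes, which respond to stress and dissociation, Fos, Fosb, Egr1 and Ier3 were higher as well (median 0.32, against 0.20 in Myh11-high cells), and their part in the inflammatory values was not tested.

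The core of the interferon-stimulated response element, the letters GAAA repeated after any 2 bases, was searched on both strands in the 250 bases before the start in the RefSeq promoters (GRCm38.p6). Of the 15 genes of the interferon list 11 had a promoter in that table, and the core occurred in 7 of them: Bst2, Gbp2, Gbp3, Ifit1, Ifit3, Isg15 and Rsad2. It occurred in 2 of 11 class I genes, in 0 of 4 class II genes and in 2.98% of all promoters. Windows of 70 bases around the first match of 4 of them are shown 5′ to 3′ on the strand of the gene, with complete matches in capitals, because they belong to the genes that were higher with GLPG0187. A match is a run of letters, and no binding was measured. They lie at chr4:156200857-156200926 (minus strand, Isg15), chr19:34583343-34583412 (plus strand, Ifit3), chr8:71537563-71537632 (minus strand, Bst2) and chr3:142620574-142620643 (plus strand, Gbp2).
Isg15: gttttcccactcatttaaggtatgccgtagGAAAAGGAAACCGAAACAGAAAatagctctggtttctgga
Ifit3: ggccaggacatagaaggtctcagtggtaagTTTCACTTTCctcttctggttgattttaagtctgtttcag
Bst2: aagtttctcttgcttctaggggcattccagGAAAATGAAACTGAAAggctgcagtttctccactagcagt
Gbp2: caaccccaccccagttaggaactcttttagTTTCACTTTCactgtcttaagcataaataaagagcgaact
Isg15 and Bst2 hold overlapping matches on the gene's strand, and Ifit3 and Gbp2 hold the same 10 letters, the core read from the other strand.

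**Figure D5:**
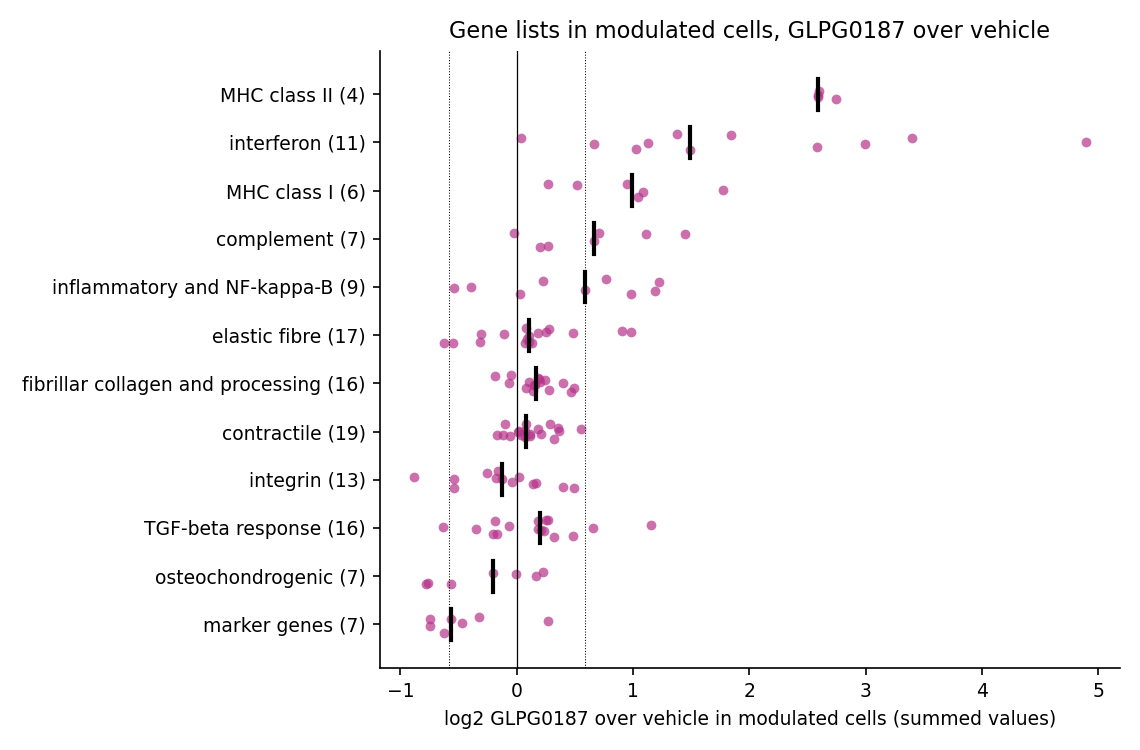
Log2 ratio of GLPG0187 over vehicle in modulated cells (x axis, from summed values) for the measured genes of 12 lists (rows, number of measured genes in brackets). Points are genes, black bars are list medians and dotted lines mark 1.5-fold; MHC class II, interferon and MHC class I genes lie to the right (medians 2.59, 1.49 and 0.99), contractile and collagen genes lie near 0, and the marker genes lie to the left (median -0.56 over 7, Vcam1 and Tnfrsf11b of the rule included).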

How the data were processed

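Each treatment gave 1 library of single aortic cells, made with the 10x Genomics Chromium 3′ version 3 kit per the labels' protocols; pooled aortas were digested with Liberase and elastase and sorted to exclude debris. Cell Ranger, Seurat and mm10 are named in the submitters' processing notes, with no versions or roles. The deposited values are scores: whole numbers per gene and cell that the authors had corrected for depth by a method not given in the sources used here. Totals per cell vary by 5.69% (GLPG0187) and 5.81% (vehicle, coefficients of variation), so original depth is unknown, no count model or thinning was possible, and low values carry the most error.

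Modulated cells were picked by the stated limits, with likely doublets kept (48 and 16 were called by Scrublet in scanpy 1.11.5 in the GLPG0187 and vehicle libraries) and left out as an alternative. The members, gene lists and limits were chosen with earlier results of these data known. Class ratios are log2 ratios of summed values over class totals, with a small equal rate added; library ratios had 1 added to each sum. Genes with a summed value of at least 50 in the classes compared were measured, and a change of 2-fold (classes) or 1.5-fold (libraries) was called by size only. Genes named by rank in the class comparison have a mean of at least 1 in the higher class of each library. Those in the library comparison have a mean of at least 0.5, a value above 0 in at least 25% of the modulated cells of the higher library, and the same direction in Xist-only and Y-only cells. Intervals are exact 95% Clopper-Pearson for shares, combined for differences. Calculations used Python 3.11.15, numpy 2.4.6, scipy 1.17.1 and pandas 2.3.3. The log2 ratio calculations were tested on simulated sums. Those sums lacked the cell-to-cell spread of these data, so that test does not bear on the genes called. Promoters came from RefSeq tables of GRCm38.p6. One of the genes that met the naming rule is not reported here.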

Additional observations from a re-analysis of the deposited data

Results flagged for a closer look

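The ratio of modulated to Myh11-high cells ran in opposite directions in the 2 libraries for 5 genes of the lists, each at least 2-fold in both, and none of these differences was tested because each treatment has 1 library. Rgs5, a regulator of G-protein signalling found in pericytes, had log2 ratios of 1.40 with GLPG0187 and -2.31 with vehicle, a difference of 3.71. It was above 0 in 17.9% of GLPG0187 and 3.33% of vehicle modulated cells, and 1 cell held 42.3% and 81.0% of its sum. Adamts4, a protease that cleaves aggrecan and versican, had 1.75 and -1.74, a difference of 3.49, with a mean of 0.155 in GLPG0187 modulated cells, and it was listed at 0 in vehicle modulated cells. Ifit1 had 2.30 and -1.68, a difference of 3.98, and 1 GLPG0187 modulated cell held 63.0% of its sum. Gbp3, an interferon-induced GTPase, had 1.22 and -1.54, a difference of 2.77, with means of 0.250 in GLPG0187 and 0.0111 in vehicle modulated cells. Igfbp6, a binding protein of insulin-like growth factors, had -1.03 and 1.09, a difference of -2.12, and was above 0 in 2.38% of GLPG0187 and 6.67% of vehicle modulated cells.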

How the results depend on the processing

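The share of modulated cells was lower with GLPG0187 under every limit tried. The difference of -7.63 percentage points became -4.62 with Myh11 of 3 to 14, -4.63 with Acta2 of at least 80 and -1.13 with all cells as the denominator. Of the genes 2-fold apart between classes in both libraries, 342 higher and 278 lower became 147 and 101 with 10 added to each sum, 213 higher with a minimum summed value of 200, and 157 higher in Xist-only cells. Of the genes 1.5-fold apart between libraries, 194 higher and 225 lower became 28 and 23 at a minimum of 200, and 2215 and 2482 with no minimum. The lower count was 102 with 10 added to each sum, 142 in Xist-only cells and 339 with Vcam1 plus Tnfrsf11b of at least 3. At a minimum summed value of 200, 2 interferon genes were measured and 1 was higher, and 2 of 3 class I genes were higher. No class II gene was measured at that minimum. Signs turned round in the split by sex of origin. Xist-only cells gave Cytl1 -0.072 and Ifit1 -1.26 (classes, GLPG0187), and Fetub 1.24 and Itga11 0.39 (libraries). Y-only cells gave H2-Aa -0.23 and list medians of -0.039 for proteoglycan, -0.15 for complement and -0.041 for immediate early genes. Without the highest cell of each gene, an alternative chosen after seeing the data, Comp had a library ratio of 0.080; removing the highest interferon cell was also chosen then. The cause of these changes was not tested. No paired analysis was possible because each treatment has 1 library. Unknown original depth limits what can be said of genes with low values.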
